A study of Mus musculus with 47 samples.

Results

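Myc, the other Myc proteins, their common partner and their antagonists are 9 genes among the 45706 gene IDs in the deposited tables: Myc, Mycn and Mycl, the Myc proteins; Max, the partner; and Mxd1, Mxd3, Mxd4, Mxi1 and Mnt, the antagonists. They were chosen by symbol, and all 9 were found. Myc had been picked for its large fall with dox (doxycycline) at 24 h of differentiation. All values of that contrast are therefore given as a description, with no test.

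C2C12 is an immortalised mouse myoblast line that fuses into myotubes when serum is withdrawn. The libraries were poly(A)-selected RNA-seq from 3 engineered C2C12 lines: iMyoD1, which keeps its own MyoD1 and carries a Halo-MyoD1 transgene that dox switches on, iCdh23 and iMcam, which carry dox-inducible Cdh23 or Mcam. The iMyoD1 cells were sampled undifferentiated in growth medium after 24 h of dox or vehicle (called 0 h), and after 24, 48 or 120 h of serum starvation with dox or vehicle for the same time. At 120 h the culture was taken whole, or was trypsinized and passed over a 40 µm filter into a myoblast-enriched flow-through and a myotube-enriched retained fraction. The iCdh23 and iMcam cells were sampled at 48 h. This gives 16 groups and 47 libraries, 3 per group except for the dox-treated myoblast-enriched fraction, which has 2, numbered 2 and 3.

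Vehicle controls carried the transgene too, and no library here came from dox-treated cells without one, so dox itself and the transgene cannot be told apart. The transgenes were integrated with PiggyBac transposase, and not every nucleus of a dox-treated iMyoD1 culture had detectable Halo-MyoD1. In whole cultures, fewer cells of a type and less RNA per cell cannot be told apart. Library totals ran from 15066362 to 50950707 estimated counts, with a median of 22837955. Myod1 itself had 171 to 181 CPM (counts scaled to library size, with TMM factors) without dox and 178 to 197 with dox at 0 h, and in whole cultures at 24, 48 and 120 h every dox library lay below every control (82.3 to 97.9 against 231 to 305 at 120 h). Whether transgene transcripts were counted under the gene is not given in the sources used here. Cdh23 stood at 348 to 451 CPM in iCdh23 without dox and 426 to 568 with dox, groups that overlapped, and at no more than 57.2 CPM in any other group, whereas Mcam stood at 17.1 to 19.8 and 69.0 to 74.7 CPM in iMcam. Summed markers of endothelium, adipocytes and osteoblasts stayed below 1 CPM in every library, and those of macrophages below 4 CPM except for 15.2 CPM in 1 dox-treated myotube-enriched library.

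The myotube-enriched libraries numbered 2 went against their labels. A score of 992 genes higher and 1175 genes lower with dox in the 120 h whole culture, on the log2 scale, was -3.27 to -3.09 without dox and -0.28 to -0.18 with dox in those whole-culture libraries themselves. In the myotube-enriched fraction it was -2.05, -1 and -2.36 without dox and -1.26, -2.64 and -0.85 with dox, for replicates 1, 2 and 3. Counts of called members, the dox effects on Myc and Mycl, the Mxi1 shares and the TPM ratios within this fraction are given with and without both of them.

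Myc proteins bind DNA as heterodimers with Max, through basic helix-loop-helix leucine zipper domains, at E-box sequences such as CACGTG, and they raise the transcription of genes for growth, ribosome production and metabolism. Mxd proteins, Mxi1 and Mnt also pair with Max at these sites but can recruit Sin3 corepressors with histone deacetylases. In muscle, Myc is known for expression in dividing myoblasts, and some Mxd genes, though not Mxd3, for expression in cells that leave the cycle.

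The members lie apart in the genome. In GRCm38 (GENCODE vM21), Myc is at chr15:61985391-61990374 on the plus strand, Mycn at chr12:12936093-12941914 (minus), Mycl at chr4:122995652-123002485 (plus) and Max at chr12:76937269-76962201 (minus). Mxd1 is at chr6:86647042-86669161 (minus), Mxd3 at chr13:55325168-55329823 (minus), Mxd4 at chr5:34173883-34187720 (minus), Mxi1 at chr19:53310518-53375810 (plus) and Mnt at chr11:74830920-74845725 (plus). The strand setting of the counting was not given in the sources used here. Mxd3 shares 105 of its 2369 exon bases (4.4%) with Prelid1 on the opposite strand, a gene with 291696 counts in all against 16906 for Mxd3. Mxd4 shares 6.1% of its exon bases with the antisense gene Gm42846 (6188 counts against 204066), and Mxi1 shares 2.8% with Gm10197 (131 counts against 66975).

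RefSeq promoter windows (GRCm38.p6, 250 bases before to 50 after a gene's start) were at hand for 8 of the 9 members, all but Myc. The E-box CACGTG, which reads the same on both strands, occurred in the windows of Max, Mxd4 and Mnt, and in 7.15% of all 32851 windows. The following 30-base stretches show it in capitals, written 5′ to 3′ on the gene's strand, because the promoters of these members hold the sequence that Max dimers of both kinds recognise. Counted from the RefSeq start, which can differ from the GENCODE ends above (in Max it lies further upstream), it begins 3 bases before the start in Max and spans it (chr12:76962234-76962263, minus), and begins 219 bases before it in Mxd4 (chr5:34187912-34187941, minus) and 123 bases before it in Mnt (chr11:74830789-74830818, plus).
Max: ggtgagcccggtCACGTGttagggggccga
Mxd4: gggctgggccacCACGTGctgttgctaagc
Mnt: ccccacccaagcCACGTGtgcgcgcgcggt
The E-box CAGCTG, a sequence that MyoD1 can bind, was in 16.3% of all windows and in none of the windows of the 8 members, among them 3 windows of Mxi1.

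Each comparison was tested with edgeR's quasi-likelihood test over all genes that passed the low-count filter, and a gene was called at a Benjamini-Hochberg adjusted p under 0.05. Mycn, a Myc protein of neural and embryonic tissue, never passed the filter: it had 38 counts over all libraries and at most 4 in one. The other 8 members were tested in every comparison. Replicates were labelled as biological, and p-values reflect the spread between them; with 3 libraries against 3, an exact permutation test could not go below 0.1.

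**Figure D1:**
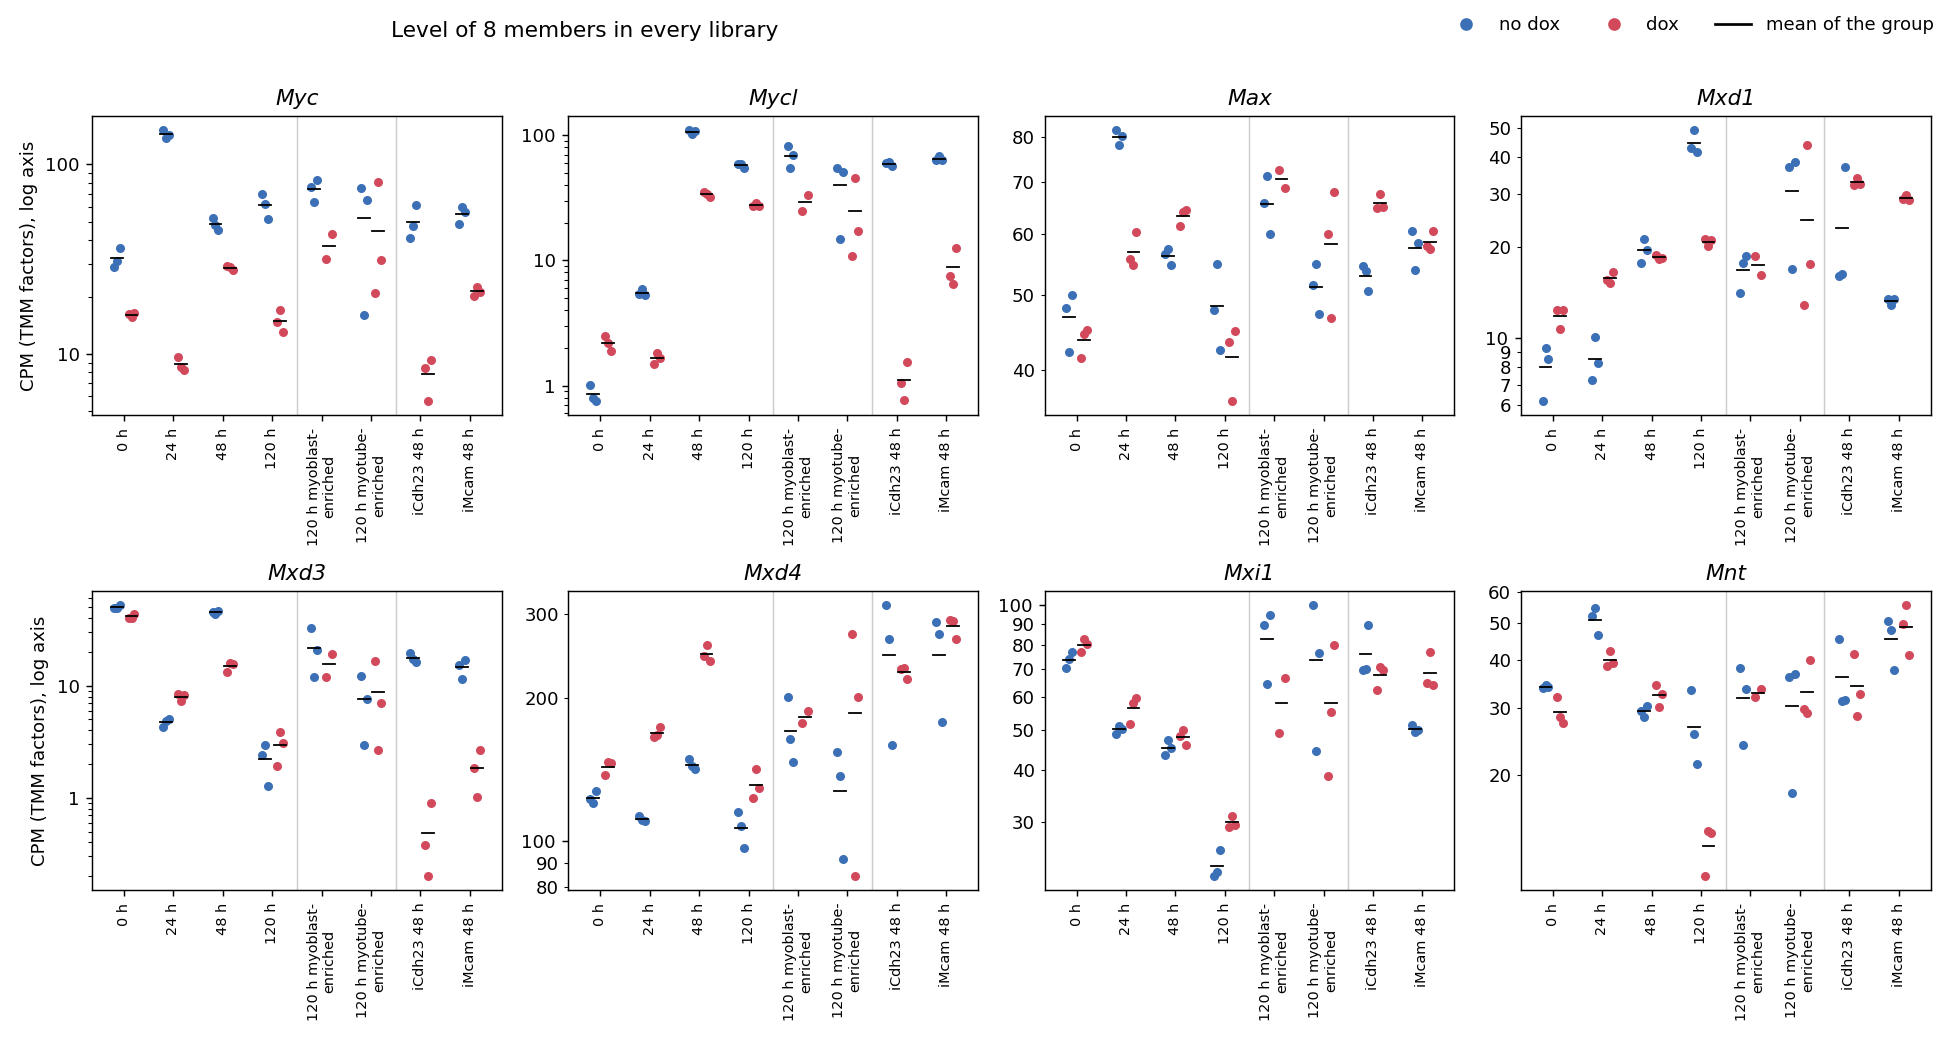
Level of the 8 members that passed the filter in each library, as CPM with TMM factors on log axes that differ between panels; points are libraries without (blue) or with dox (red), black lines are group means, and grey lines set off the 120 h fractions and the iCdh23 and iMcam lines. Myc lay at 138 to 153 CPM at 24 h without dox and at 8.18 to 9.67 with it, and Mycl fell from 56.4 to 61.2 CPM to 0.761 to 1.53 with dox in iCdh23.

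Myc, the best known driver of cell growth in the network, was lower in every dox-treated library of whole cultures than in any library of the matched controls. At 24 h, the contrast it was chosen on, it had 153, 138 and 143 CPM without dox and 9.67, 8.58 and 8.18 with dox, a 16.8-fold difference (log2 -4.07). At 0 h, in growth medium, it had 28.9, 31.0 and 36.3 CPM without dox and 16.2, 15.6 and 16.5 with dox. The groups did not overlap, and Myc fell 1.98-fold (log2 -0.99 ± 0.09, SE; adjusted p = 1.61e-06, edgeR).

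Myc also fell with dox at 48 h and 120 h. At 48 h it had 52.4, 48.0 and 45.3 CPM without dox and 29.3, 28.7 and 27.6 with dox (log2 -0.78 ± 0.08, adjusted p = 9.57e-06). At 120 h in the whole culture it had 69.7, 61.6 and 51.5 CPM against 14.7, 17.1 and 13.1 (log2 -2.04 ± 0.15, adjusted p = 1.01e-05). The dox effect at 120 h was larger than that at 48 h by log2 -1.26 ± 0.17 in a test of the difference itself (adjusted p = 7.27e-05). The effects at 48 h and 0 h differed by log2 0.15 ± 0.12, which did not pass (adjusted p = 0.359).

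Myc also fell with dox in the lines that carry an inducible adhesion gene in place of MyoD1. In iCdh23, which carries a cadherin with a large extracellular part, it had 40.9, 47.6 and 61.5 CPM without dox and 8.47, 5.63 and 9.35 with dox (log2 -2.68 ± 0.23, adjusted p = 5.8e-05). In iMcam, which carries an immunoglobulin-type adhesion molecule, it had 48.2, 59.3 and 56.3 CPM against 20.2, 22.7 and 21.3 (log2 -1.32 ± 0.11, adjusted p = 0.000216). The dox effect was smaller in iMcam than in iCdh23 by log2 1.35 ± 0.27 (adjusted p = 0.00916), a call that was lost when all groups of the deposited table shared 1 fit (adjusted p = 0.416). No left-out library ended that call (adjusted p of 0.0066 to 0.0238, edgeR). The shared fit also holds the 120 h fractions, where dox-treated myotube-enriched replicates correlated at a median r of 0.844 to 0.884. Replicates of iCdh23 and iMcam correlated at 0.962 to 0.992, and the part of this spread was not tested.

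Mycl, a Myc protein with a shorter transactivating region, moved over the widest range of the 8 tested members, 125-fold between its lowest and highest group means (0.855 and 107 CPM). At 0 h it rose with dox: it had 1.02, 0.800 and 0.749 CPM without dox and 2.48, 2.18 and 1.90 with dox (log2 1.37 ± 0.29, adjusted p = 0.00183). At 24 h the values stood the other way, at 5.40, 5.89 and 5.26 CPM against 1.49, 1.81 and 1.68 (log2 -1.76, not tested). These levels were low in both media, and the groups did not overlap.

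From 48 h on, Mycl was among the more abundant members without dox and fell with it. It had 110, 102 and 108 CPM without dox and 34.9, 34.1 and 32.1 with dox at 48 h (log2 -1.68 ± 0.07, adjusted p = 3.23e-08). At 120 h it had 59.3, 58.7 and 54.5 CPM against 27.0, 28.6 and 27.2 (log2 -1.07 ± 0.10, adjusted p = 3.48e-05). The summed level of 8 myotube markers (among them Myog, Myh3 and Ckm) also differed, at 12600 to 14000 CPM without dox and 5060 to 5260 with dox at 48 h, and 15000 to 18200 and 10300 to 12000 at 120 h; its part in the Mycl result was not tested. The 48 h effect differed from the 0 h effect by log2 -3.12 ± 0.19 (adjusted p = 1.92e-09); medium, length of dox treatment and table also differ between these times and cannot be told apart, here and in the other tests of 48 h against 0 h. The fall at 120 h was smaller than that at 48 h by log2 0.61 ± 0.11 (adjusted p = 0.000676).

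In iCdh23, Mycl fell to about 1 CPM: 60.1, 61.2 and 56.4 CPM without dox stood against 1.04, 0.761 and 1.53 with dox (log2 -5.73 ± 0.22, adjusted p = 4.99e-06). Summed myotube markers stood at 5270 to 9230 CPM without dox and 37 to 126 with dox in iCdh23, and 5 summed myoblast markers (such as Myod1, Myf5 and Des) at 2320 to 2920 and 384 to 457. The myoblast sum does not single out undifferentiated myoblasts, so a lower sum is no measure of fewer myoblasts. Without dox it was 753 to 780 CPM at 0 h, 2330 to 2720 in the myoblast-enriched and 3250 to 4030 in the myotube-enriched fraction. In iMcam Mycl had 63.0, 68.8 and 63.4 CPM against 7.54, 6.42 and 12.6 (log2 -2.84 ± 0.23, adjusted p = 0.000207). There the myotube markers stood at 3920 to 9660 and 516 to 1630 CPM, and the myoblast markers at 1850 to 3010 and 607 to 930; the part of these cell states in any member's result in the 2 lines was not tested. The fall of Mycl was smaller in iMcam by log2 2.87 ± 0.34 (adjusted p = 0.000561, edgeR), and no left-out library ended that call, nor did 1 fit over all groups (adjusted p = 0.0262).

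Max, the common partner, moved least of the 8 tested members, 1.93-fold between its lowest and highest group means. It had 41.5 to 45.1 CPM with dox and 42.2 to 50.05 without at 0 h, and 61.4 to 64.4 with dox and 54.7 to 57.4 without at 48 h, and it was not called at 0, 48 or 120 h (adjusted p = 0.356, 0.0579 and 0.171). In iCdh23 it rose by log2 0.31 ± 0.07 (adjusted p = 0.00681), from 54.4, 53.7 and 50.6 CPM to 64.8, 67.5 and 65.1. At 24 h it stood at 81.8, 78.2 and 80.4 CPM without dox and 55.6, 54.7 and 60.2 with dox (log2 -0.52, not tested).

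Max has 2 transcripts in the annotation, a short form with 456 coding bases and a long form with 483. The 27 coding bases found only in the long form make up an exon near the 5′ end of the coding sequence (chr12:76961263-76961289, GRCm38, minus), shown in capitals between 15 coding bases on each side, because the transcript shares below separate the forms by it.
Max: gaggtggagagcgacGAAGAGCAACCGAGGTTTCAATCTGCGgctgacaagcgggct
By the authors' estimated counts per transcript, the long form took 44.1 to 45.3% of Max at 48 h without dox and 34.6 to 40.0% with dox. In iCdh23 it took 41.7 to 46.9% without dox and 27.6 to 28.4% with dox, and in iMcam 39.3 to 44.5% and 27.2 to 27.7%. The groups overlapped at 0 h (27.4 to 31.5% without dox, 28.3 to 34.6% with dox), and at 120 h in the whole culture (40.8 to 63.3% and 23.2 to 53.2%). They also overlapped in the myoblast-enriched fraction (29.2 to 35.2% and 31.9 to 34.1%) and in the myotube-enriched fraction (29.3 to 44.5% and 7.58 to 40.2%). At 24 h the share was 32.72 to 41.3% without dox and 29.4 to 32.67% with dox, groups that nearly met. Shares of transcripts were estimated by the authors' software from reads that the forms largely share, and they are given with no test.

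Among the antagonists, Mxd4 was the most abundant per transcript length in every group but 0 h without dox, and the only one called higher with dox in each iMyoD1 whole culture tested. It had 123, 120 and 127 CPM without dox and 138, 147 and 146 with dox at 0 h (log2 0.23 ± 0.05, adjusted p = 0.00443). At 48 h it had 149, 144 and 142 CPM against 246, 258 and 239 (log2 0.76 ± 0.06, adjusted p = 1.41e-06). At 120 h the difference was small (115, 108 and 96.9 CPM against 123, 142 and 129; log2 0.29 ± 0.10, adjusted p = 0.0374), and the call was lost without the control numbered 2 or 3 or the dox library numbered 2 or 3 (adjusted p up to 0.161), without the filter, and with a replicate block.

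In the other lines Mxd4 was not called. It had 314, 266 and 159 CPM in iCdh23 without dox and 230, 231 and 219 with dox, so the control numbered 3 lay apart from the other two. Without that library Mxd4 was called lower with dox (log2 -0.37, adjusted p = 0.0138, edgeR). In iMcam it had 289, 272 and 178 CPM against 292, 291 and 266 (log2 0.24 ± 0.18, adjusted p = 0.307).

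Mxd3, an antagonist known for its expression in S phase of dividing cells, ranged 103-fold between group means, from 0.488 to 50.2 CPM. At 48 h it had 45.7, 44.1 and 46.6 CPM without dox and 13.2, 15.97 and 15.7 with dox (log2 -1.62 ± 0.09, adjusted p = 1.59e-07). In iCdh23 it had 19.5, 17.5 and 16.2 CPM against 0.375, 0.199 and 0.892 (log2 -5.17 ± 0.40, adjusted p = 3.49e-05), and in iMcam 15.3, 11.4 and 17.0 against 1.86, 1.02 and 2.67 (log2 -2.93 ± 0.32, adjusted p = 0.000491). The iCdh23 effect rests on 6 to 25 counts per dox library, and with 1 library left out it ran from log2 -5.97 to -4.75.

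Mxd3 moved together with the summed level of 6 proliferation markers (Mki67, Top2a, Ccnb1, Ccna2, Cdk1 and Birc5). That sum was 1090 to 1120 CPM without dox and 322 to 334 with dox at 48 h, 671 to 1010 and 18.8 to 34.6 in iCdh23, and 638 to 818 and 58.9 to 117 in iMcam. At 0 h it was 2430 to 2450 and 2130 to 2200, and Mxd3 had 49.1, 48.9 and 52.6 CPM against 40.4, 40.6 and 43.6 (log2 -0.27 ± 0.06, adjusted p = 0.00486). Over the 16 group means, Mxd3 and the summed markers had a Pearson r of 0.88 and a Spearman rho of 0.85 on the log2 scale, while Mxd1 and the markers had an r of -0.74. These groups share tables and scaling, and the part of proliferating cells in the results was not tested.

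At 24 h, Mxd3 had 4.26, 4.82 and 5.05 CPM without dox and 8.46, 7.33 and 8.18 with dox (log2 0.73, not tested), and the summed proliferation markers stood at 614 to 668 and 657 to 667 CPM. At 120 h in the whole culture, Mxd3 had 2.41, 2.94 and 1.28 CPM against 1.94, 3.87 and 3.07, groups that overlapped (adjusted p = 0.428), and the markers stood at 217 to 258 and 426 to 499 CPM. The dox effect on Mxd3 at 120 h exceeded that at 48 h by log2 2.02 ± 0.33 (adjusted p = 0.000406), and the 48 h effect lay below the 0 h effect by log2 -1.41. Between lines, the effect was smaller in iMcam than in iCdh23 by log2 2.22 ± 0.55 (adjusted p = 0.0246), a call lost without any 1 of 6 libraries: iCdh23 control 2, iCdh23 dox 1 or 2, iMcam control 2, and iMcam dox 1 or 3 (adjusted p up to 0.069), and lost in 1 fit over all groups (0.275).

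Mxd1, the first described Mxd protein and one often expressed as cells differentiate, rose with dox at 0 h and in iMcam and fell at 120 h. It had 6.16, 9.25 and 8.53 CPM without dox and 12.4, 10.7 and 12.4 with dox at 0 h (log2 0.57 ± 0.14, adjusted p = 0.00606). In iMcam it had 13.5, 12.8 and 13.5 CPM against 28.9, 30.0 and 28.7 (log2 1.17 ± 0.09, adjusted p = 0.000179). At 120 h the whole culture had 42.8, 49.2 and 41.6 CPM without dox and 21.3, 20.1 and 21.1 with dox (log2 -1.11 ± 0.11, adjusted p = 6.61e-05).

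At 48 h, Mxd1 had 17.7, 21.3 and 19.6 CPM against 18.9, 18.3 and 18.4 and was not called (adjusted p = 0.392). Both differences between times passed: the 120 h effect lay below the 48 h effect by log2 -1.02 ± 0.14 (adjusted p = 8.86e-05), and the 48 h effect below the 0 h effect by log2 -0.72. In iCdh23 it had 16.1, 16.4 and 36.9 CPM without dox and 32.3, 34.1 and 32.5 with dox. The groups overlapped through the control numbered 3, and the effect (log2 0.51 ± 0.31, adjusted p = 0.187) became log2 1.01 and was called without that library (adjusted p = 2.71e-05). At 24 h, Mxd1 had 7.23, 10.04 and 8.24 CPM without dox and 15.6, 15.2 and 16.5 with dox (log2 0.86, not tested).

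Mnt, a broadly expressed antagonist, was lowest at 120 h with dox. There it had 33.3, 25.6 and 21.4 CPM without dox and 10.9, 14.3 and 14.1 with dox (log2 -1.04 ± 0.19, adjusted p = 0.00179), an effect below that at 48 h by log2 -1.16 ± 0.21 (adjusted p = 0.000754). At 0 h it had 33.8, 34.4 and 34.1 CPM against 32.1, 28.4 and 27.4 (log2 -0.21 ± 0.07, adjusted p = 0.0388). That call was lost without the dox library numbered 2 or 3 or any 1 control (adjusted p up to 0.123), and it missed the threshold in DESeq2 (adjusted p = 0.0631). Mnt was not called at 48 h, in iCdh23 or in iMcam.

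Mxi1, a further Mxd-type antagonist, was not called at 0 h, at 48 h or in iCdh23, while the shares of its transcripts differed at 48 h and in iCdh23. In the myoblast-enriched fraction Mxi1 differed by log2 -0.51 ± 0.21 and was not called (adjusted p = 0.211, edgeR), though it was with a replicate block. It was called in iMcam, with 51.3, 49.4 and 49.9 CPM without dox and 64.8, 77.1 and 64.3 with dox (log2 0.49 ± 0.10, adjusted p = 0.00515), though not when all groups of the deposited table shared 1 fit (adjusted p = 0.178). It was also called at 120 h in the whole culture, with 22.1, 22.6 and 25.6 CPM against 29.1, 31.0 and 29.5 (log2 0.34 ± 0.12, adjusted p = 0.0391). The call at 120 h was lost without any dox library and without the control numbered 1 or 2 (adjusted p up to 0.136), without the filter, and with a replicate block. In iCdh23 the totals were 69.7, 70.0 and 89.4 CPM against 62.5, 70.9 and 69.6, and Mxi1 was not called (adjusted p = 0.227).

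The long form of Mxi1 starts at an upstream first exon, at base 53310518 of chromosome 19, and has 888 coding bases. A short form, with 579 coding bases, starts downstream, and its coding bases all lie within those of the long form. The first 274 coding bases found only in the long form (chr19:53310700-53310973, GRCm38, plus) are shown with the start codon in capitals, because they mark the form whose share differed with dox.
Mxi1: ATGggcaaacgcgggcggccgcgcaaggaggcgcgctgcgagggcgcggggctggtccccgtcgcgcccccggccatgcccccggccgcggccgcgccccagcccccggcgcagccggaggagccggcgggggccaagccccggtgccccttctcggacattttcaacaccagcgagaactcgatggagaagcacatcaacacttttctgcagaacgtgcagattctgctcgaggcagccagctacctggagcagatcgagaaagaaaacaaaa

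The long form took 75.3 to 88.3% of the Mxi1 estimated counts in iCdh23 without dox and 18.02 to 20.7% with dox. In iMcam it took 60.5 to 87.6% without dox and 27.8 to 37.7% with dox, and at 48 h in iMyoD1 54.7 to 63.3% and 29.2 to 35.3%. None of these groups overlapped. At 0 h they did (50.5 to 53.9% and 50.5 to 55.3%). At 24 h the shares were 59.6 to 69.0% without dox and 35.8 to 44.5% with dox, and in the myoblast-enriched fraction 69.5 to 84.7% and 40.9 to 55.5%.

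The 120 h whole culture had 22.6 to 49.99% of the long form without dox and 9.94 to 35.5% with dox, groups that overlapped. There the remainder was mostly another transcript with a downstream start in all 3 dox-treated cultures (57.5 to 87.95%) and in 2 of the 3 controls (62.6% and 77.5%), while the control numbered 1 had none of it. This transcript stood below 4% in all other groups except for 87.9% in 1 dox-treated myotube-enriched library. In the myotube-enriched fraction, the long form ran from 43.3 to 91.2% without dox and 12.1 to 84.4% with dox. Without both libraries numbered 2 it ran from 83.4 to 91.2% and from 12.1 to 56.8%. Those libraries were left out because they went against their dox labels, so this separation cannot show an effect of dox. The library at 12.1% is the one with 87.9% of the other transcript. Shares of these forms were not tested, and the split between the downstream starts rests on how the authors' software split reads between overlapping transcripts.

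**Figure D2:**
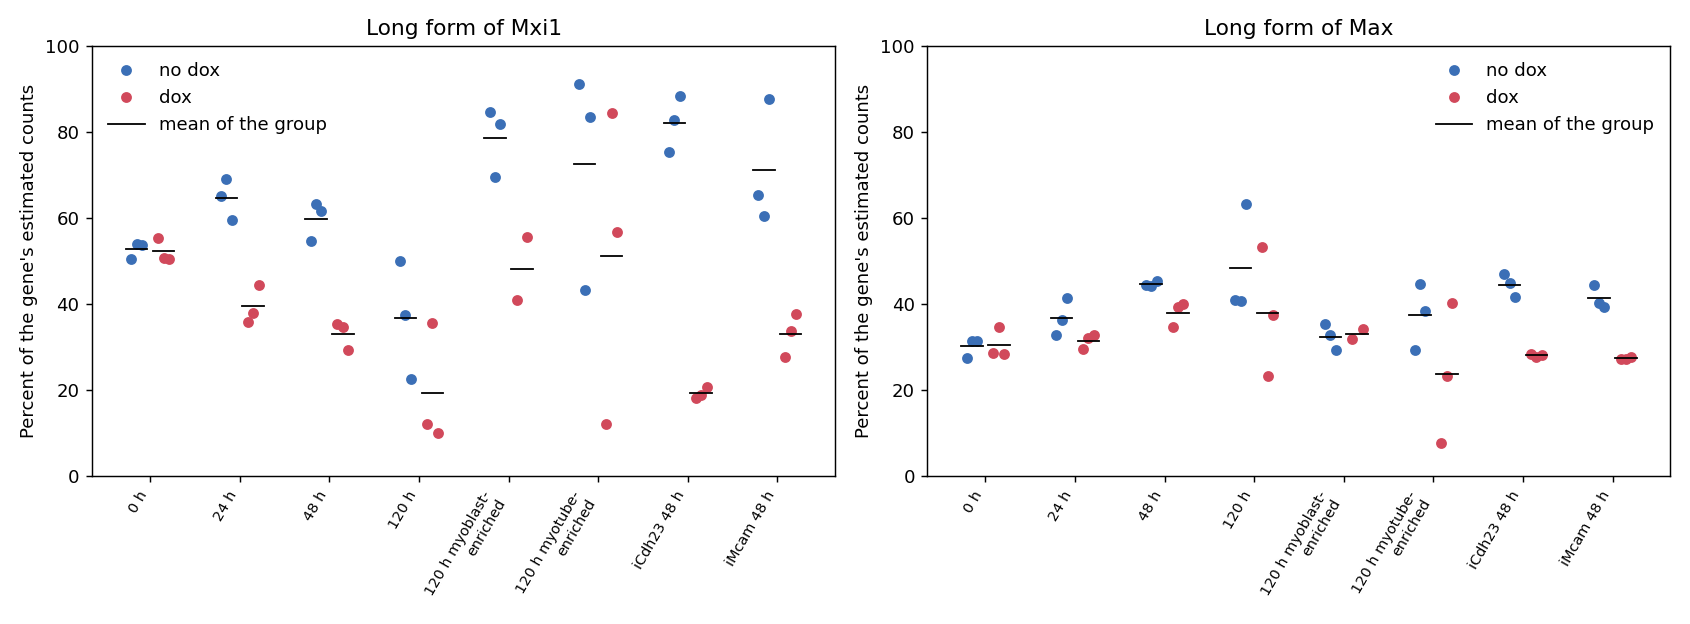
Share of the long form of Mxi1 (left) and of Max (right) in the estimated counts of its gene, in percent, for each library without (blue) or with dox (red), with group means as black lines. In iCdh23 the long form of Mxi1 lay at 75.3 to 88.3% without dox and 18.02 to 20.7% with dox, and that of Max at 41.7 to 46.9% and 27.6 to 28.4%.

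The calls stand against wide backgrounds, since dox moved large parts of the transcriptome. At 0 h, 6 of 8 members were called and 37.8% of all genes tested (19.1% rose, 18.7% fell); at 48 h, 4 of 8 and 56.6% (27.9% rose, 28.7% fell). At 120 h in the whole culture it was 6 of 8 and 45.2% (21.4% rose, 23.7% fell). In iCdh23 it was 4 of 8 and 63.8% (31.3% rose, 32.4% fell), and in iMcam 5 of 8 and 49% (24.2% rose, 24.8% fell). At 24 h, where Myc was chosen, 62.8% of all genes passed the threshold (31.1% rose, 31.7% fell), and members are not counted. Under scaling to library totals, 7 of 8 members and 59.6% of genes were called at 48 h, since Max, Mxi1 and Mnt then passed.

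Tests of the difference between dox effects called 6 of 8 members between 120 h and 48 h, where 34.1% of all genes were called. They called 4 of 8 members between 48 h and 0 h against 36.3% of genes, and 4 of 8 between iMcam and iCdh23 against 10.6%. The last count was 1 in 1 fit over all groups, and 2 without iCdh23 dox library 1 or iMcam control 2.

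**Figure D3:**
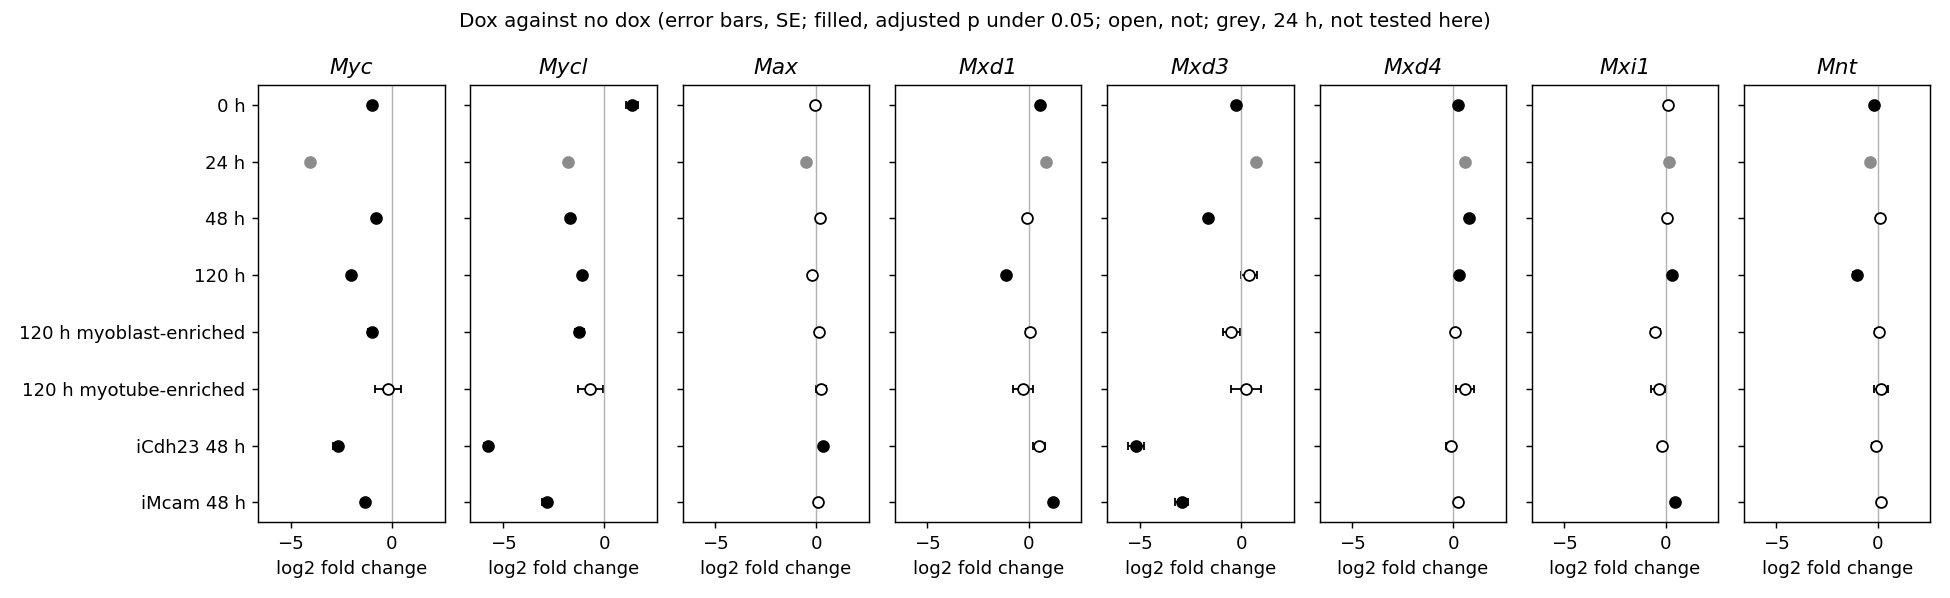
Dox effect on the 8 tested members, as log2 fold change (horizontal axis, the same in all panels) with SE as error bars, for each line, time and fraction; filled points have an adjusted p under 0.05 (edgeR), open points do not, and grey points are the untested 24 h contrast. Among the tested effects, Mycl and Mxd3 in iCdh23 lie furthest to the left, at log2 -5.73 and -5.17.

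In the fractions taken at 120 h, spread between replicates was larger and fewer members were called. In the myoblast-enriched fraction, Myc had 75.8, 63.5 and 82.8 CPM without dox and 31.6 and 42.8 with dox (log2 -0.98 ± 0.18, adjusted p = 0.0353), and Mycl 81.4, 54.9 and 68.9 against 24.8 and 33.2 (log2 -1.23 ± 0.21, adjusted p = 0.0296). Summed CPM of the 8 myotube markers was lower with dox in this fraction, at 4810 to 5170 against 6070 to 9240 without dox, and that of the 5 myoblast markers stood at 2080 to 2130 against 2330 to 2720, with no overlap in either; their part in these falls was not tested. Myc and Mycl were 2 of 8 members, where 4.34% of all genes were called. Both calls were lost without the control numbered 3 and without either dox library, and that of Myc also without the control numbered 1 (adjusted p up to 0.258 for Myc and 0.232 for Mycl). In 1 fit over all groups of the deposited table, neither passed (adjusted p = 0.411 and 0.316).

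In the myotube-enriched fraction no member was called, and 0% of all genes (79 genes had an unadjusted p under 0.05, and DESeq2 called 1). In data simulated for this comparison, edgeR recovered 0 of 200 changes of log2 1 and 81 of 200 changes of log2 2. In data simulated for the myoblast-enriched fraction it recovered 81 of 200 changes of log2 1. The lack of calls in the myotube-enriched fraction therefore does not show a lack of change. Myc had 75.0, 16.1 and 65.1 CPM without dox and 21.1, 81.2 and 31.5 with dox, so the libraries numbered 2 stood opposite to the others in both groups. Mycl had 55.0, 14.9 and 50.4 CPM against 10.9, 45.9 and 17.2. The log2 effects were -0.20 ± 0.63 for Myc and -0.68 ± 0.61 for Mycl (adjusted p = 0.998 for both); without both libraries numbered 2 they were -1.38 and -1.88, and still not called (adjusted p = 0.372 and 0.351).

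Between the fractions without dox, no member was called (0.592% of all genes were), and the Mxd3 levels were 12.2, 2.95 and 7.67 CPM in the myotube-enriched and 32.4, 12.1 and 20.8 in the myoblast-enriched fraction. Replicate numbers paired these samples, and with the replicate as a block Mxd3 was called lower in the myotube-enriched fraction (log2 -1.59, adjusted p = 0.00996, edgeR), where 676 rather than 83 genes were called in all. Without both libraries numbered 2, and without the block, Mxd3 differed by log2 -1.12 and was not called (adjusted p = 0.288). Summed proliferation markers were 126 to 587 and 397 to 1070 CPM in these groups, and their part in the difference was not tested. Mxd1 had 37.0, 16.9 and 38.3 CPM against 14.1, 17.8 and 18.6, and it was called only without both myotube-enriched libraries numbered 2 (log2 1.17, adjusted p = 0.048); leaving out the library without dox alone gave the same values. With dox, 0% of genes were called between the fractions (182 at an unadjusted p under 0.05, DESeq2 0), and 0% in the test of whether the dox effect differed between fractions (217 unadjusted, DESeq2 2); without both libraries numbered 2, edgeR again called 0 in each.

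Without dox, Myc was highest at 24 h. The 24 h libraries are those it was chosen on, so its changes there are a description: 32.1 CPM on average at 0 h, 145 at 24 h and 48.6 at 48 h. Of the other members from 0 to 24 h, Mycl rose by log2 2.73 ± 0.20 (adjusted p = 2.5e-08), Max by 0.81 ± 0.07 and Mnt by 0.62 ± 0.07, while Mxd3 fell by 3.37 ± 0.09 on the log2 scale (adjusted p = 8.18e-13) and Mxi1 by 0.53. Of the 7 tested members other than Myc, 5 were called, where 74.3% of all genes were called (37.3% rose, 37% fell).

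From 24 to 48 h without dox, Mycl rose 19.4-fold and Mxd3 9.64-fold (log2 4.28 ± 0.08 and 3.27 ± 0.09), and 6 of the 7 tested members other than Myc were called beside 76.8% of all genes (38.4% rose, 38.4% fell). The 24 h and 48 h libraries lie in different deposited tables, and of these only the 48 h libraries carry a batch label, so time and table cannot be told apart in this step. Over the same step the summed myotube markers went from 11.6 to 12.9 CPM to 12600 to 14000, and the myoblast markers from 437 to 457 CPM to 3270 to 3520; their part was not tested. From 48 to 120 h, within 1 table, Mxd3 fell 20.2-fold (log2 -4.34 ± 0.22, adjusted p = 7.62e-07), Mycl fell by 0.87 and Mxi1 by 0.93 on the log2 scale, and Mxd1 rose by log2 1.21 ± 0.12 (adjusted p = 2.02e-05). In this step 6 of 8 members were called, where 67.1% of all genes were (33% rose, 34.1% fell). The rise of Myc in it (log2 0.35 ± 0.12, adjusted p = 0.0282) rested on overlapping groups. It missed the threshold under upper-quartile scaling (adjusted p = 0.111) and scaling to library totals (0.0628), and without the 48 h library numbered 2 or 3 or the 120 h library numbered 1 or 2 (adjusted p up to 0.118).

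With dox, Myc stayed low at 24 h. It had 16.1 CPM on average at 0 h, 8.81 at 24 h and 28.5 at 48 h, and those at 24 h are from the libraries it was chosen on. From 0 to 24 h, 6 of the 7 tested members other than Myc were called beside 68% of all genes (34% rose, 34% fell); Mxd3 fell by 2.37 ± 0.07 on the log2 scale and Mxi1 by 0.50, while Max, Mxd1, Mxd4 and Mnt rose by log2 0.39, 0.42, 0.24 and 0.45. From 24 to 48 h, where table and time again coincide, 6 of those 7 were called beside 72.4% (36.9% rose, 35.5% fell), and Mycl rose 20.1-fold. The call of Mxd1 there (log2 0.21 ± 0.08, adjusted p = 0.0278) was lost in DESeq2 (adjusted p = 0.0598) and without the 24 h library numbered 1 or 2 or the 48 h library numbered 1.

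From 48 to 120 h with dox, 7 of 8 members fell and none rose, where 73.5% of all genes were called (34.9% rose, 38.6% fell). Mxd3 fell by 2.33 ± 0.21 on the log2 scale (adjusted p = 3.47e-07), Mnt by 1.30 ± 0.13 (adjusted p = 7.7e-07), Myc by 0.92 ± 0.12 (adjusted p = 1.16e-05) and Mxd4 by 0.90 ± 0.09 (adjusted p = 7.58e-07). Max and Mxi1 fell by 0.60 and 0.68. Mycl fell by 0.28 ± 0.10 (adjusted p = 0.0189), a call lost without the 48 h library numbered 2 or the 120 h library numbered 3.

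Ordered by group mean over all 16 groups, Myc was highest at 24 h without dox and lowest in iCdh23 with dox (145 and 7.81 CPM). Only 4 of the 15 steps between neighbouring groups in this order were larger than the spread, in the sense that no library of the lower group reached the higher one. For Mycl and Mxd3 it was 5 of 15, for Max and Mxd1 4, for Mxd4 and Mxi1 3, and for Mnt 1. Levels set side by side across the 3 tables were scaled together, but the tables were made separately.

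Per transcript length (TPM, summed over a gene's transcripts), Mxd4 led the 9 members in 13 of the 16 groups, Myc in 2 (24 h and 120 h whole culture without dox) and Mxd3 in 1 (0 h without dox). The 5 antagonists together stood at 102 TPM at 24 h without dox, against 114 TPM for the 3 Myc proteins, a ratio of 0.896, and at 159 against 10.2 TPM with dox, a ratio of 15.6. At 0 h the ratio was 6.19 without dox and 10.9 with dox, at 48 h 1.71 and 4.06, and at 120 h in the whole culture 1.11 and 3.51. The ratio was higher with dox than without in each of the 8 settings, with wide gaps at 24 h and in iCdh23 (2.85 and 22.0). In the myoblast-enriched fraction it was 1.73 and 3.13. In the myotube-enriched fraction it was 2.10 and 2.80, and without both libraries numbered 2 it was 1.77 and 5.36, with Myc rather than Mxd4 leading without dox. In iMcam it was 2.30 and 8.60. These ratios combine group means and follow from the levels above, so they are no further evidence.

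**Figure D4:**
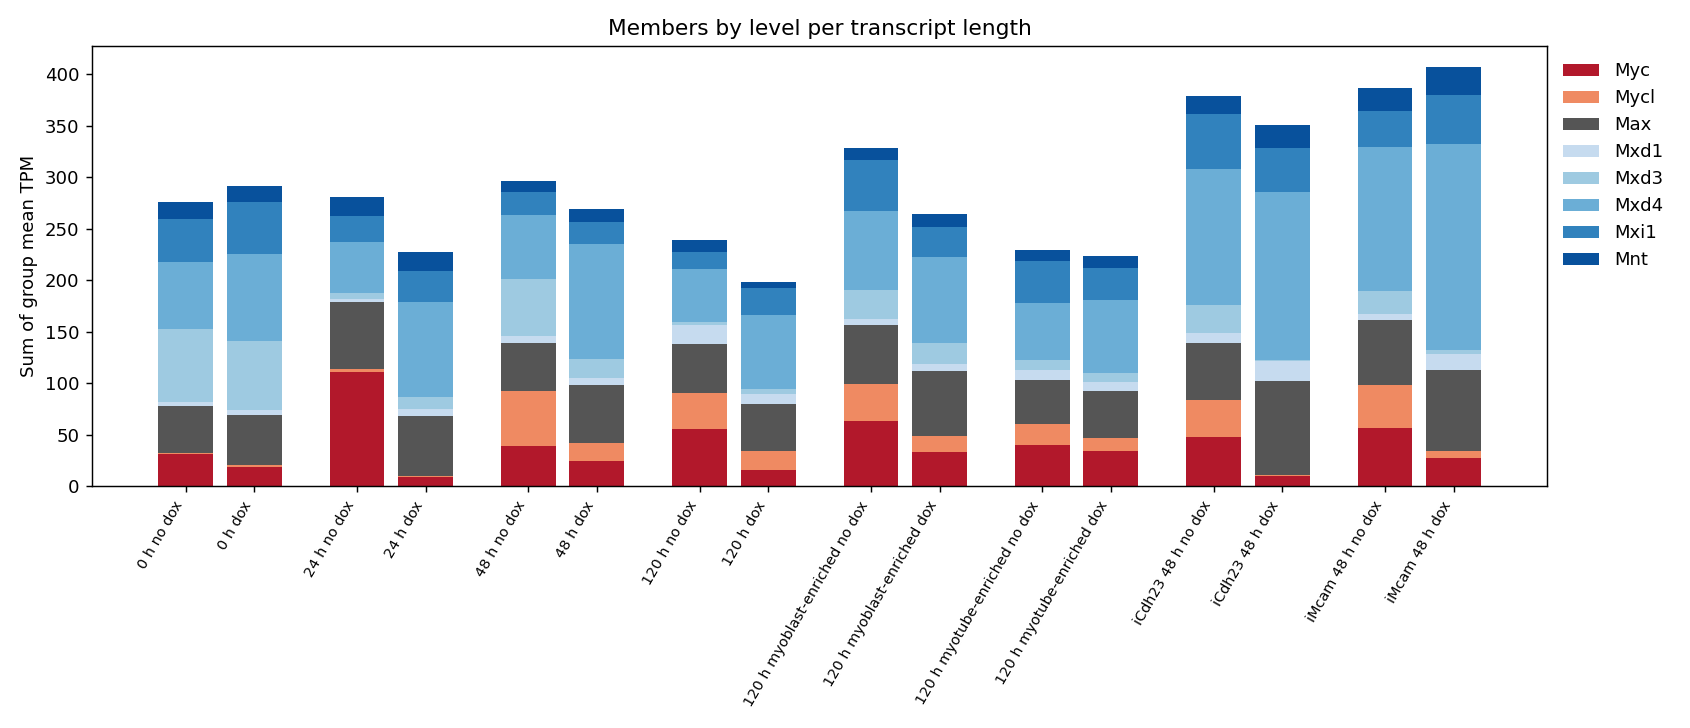
Sum of group mean TPM of the 8 members that passed the filter, stacked by gene, for the 16 groups. Red tones are Myc and Mycl, grey is Max and blue tones are the antagonists; the red part is largest at 24 h without dox (114 TPM for the Myc proteins) and smallest at 24 h with dox (10.2 TPM).

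Textbook targets of Myc were listed from general knowledge, with 34 genes that Myc activates, for ribosome production (such as Ncl, Fbl, Nop56), nucleotide and amino acid metabolism, and the cell cycle, of which 33 or 34 were tested. At 0 h, 25 of 33 fell with dox and none rose, with a median of log2 -0.41 against 0 over all genes, of which 18.7% fell. Gnl3, a nucleolar GTP-binding protein, fell by 1.01 ± 0.08 on the log2 scale (adjusted p = 3.73e-07). At 48 h, 26 of 34 fell and 2 rose (median log2 -0.41 against 0.01 over all genes, of which 28.7% fell); Mthfd2, an enzyme of mitochondrial one-carbon metabolism, fell by 1.94 ± 0.09 (adjusted p = 5.9e-08), and Tert, the catalytic subunit of telomerase, rose by log2 0.96 ± 0.38 (adjusted p = 0.0494).

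At 120 h in the whole culture, 24 of 34 Myc-activated targets fell and 3 rose (median log2 -0.55 against 0.00 over all genes, of which 23.7% fell), with Slc7a5, a large neutral amino acid transporter, the strongest fall (log2 -2.62 ± 0.12, adjusted p = 8.88e-07). In iCdh23, 29 fell and 1 rose (median log2 -1.10 against 0.00, with 32.4% of all genes falling), and in iMcam 28 fell and 1 rose (median log2 -0.87 against 0.02, with 24.8% falling). The gene that rose in both was Slc16a1, a lactate transporter (log2 0.36 and 0.71), and the strongest fall in both was that of E2f2, a cell cycle transcription factor (log2 -5.61 ± 0.37 and -3.41 ± 0.33). Summed proliferation markers were also lower with dox at 0 h, at 48 h and in these 2 lines, and higher at 120 h, where all 6 rose; their part in the counts was not tested. At 24 h, the contrast on which Myc was chosen, 33 of 33 were lower with dox (median log2 -1.15 against -0.002 over all genes). These 33 are counted by direction with no test, while 31.7% of all genes were called lower there.

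In the myoblast-enriched fraction 2 of 34 targets fell with dox, a share near the 4.34% of all genes called, and in the myotube-enriched fraction no gene was called; Slc7a5 was one of the former (log2 -1.58 ± 0.23, adjusted p = 0.0212). From 0 to 24 h without dox, 29 of 33 rose and 3 fell (median log2 1.26 against 0.01), where 37.3% of all genes rose and 37% fell, led by Slc7a5 (log2 2.66 ± 0.07) and with Ldha, lactate dehydrogenase A, falling by 1.11. With dox over the same time, 21 rose and 8 fell (median log2 0.32 against 0.01), where 34% of all genes rose and 34% fell. Both use the 24 h libraries on which Myc was chosen.

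Of 8 textbook Myc-repressed targets, 7 were tested. At 48 h 5 fell and 2 rose (median log2 -0.65 against 0.01 over all genes, of which 28.7% fell and 27.9% rose), with Cdkn1a, which encodes the p21 inhibitor of cyclin-dependent kinases, lower by log2 -1.26 ± 0.08 (adjusted p = 2.82e-07). In iCdh23 5 fell and 1 rose (median log2 -1.91 against 0.00, with 32.4% of all genes falling and 31.3% rising); Cdkn1a fell by 4.48 ± 0.28 on the log2 scale (adjusted p = 1.39e-05), and in iMcam, where 3 fell and none rose, by 2.05 ± 0.17. Of all genes, 24.8% fell and 24.2% rose in iMcam. At 0 h, 4 fell and 1 rose (median log2 -0.26), and at 120 h 4 fell and 2 rose (median log2 -1.22), where 18.7% and 23.7% of all genes fell, with Gadd45a, a stress response gene, changing by log2 -3.36 ± 0.11 (adjusted p = 1.67e-07) and Ndrg2 rising by log2 2.12 ± 0.17.

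Genes for the proteins that work with the network moved in both directions. Of 5 corepressor genes (Sin3a, Sin3b, Hdac1, Hdac2, Ncor1), 1 rose with dox and none fell at 0 h, 3 rose and 1 fell at 48 h, and 4 rose and none fell at 120 h, where 19.1%, 27.9% and 21.4% of all genes rose and 18.7%, 28.7% and 23.7% fell. In iCdh23 4 rose and 1 fell, and in iMcam 3 rose and 1 fell, beside 31.3% and 24.2% of all genes rising and 32.4% and 24.8% falling. In the myoblast-enriched fraction, where 4.34% of all genes were called, 1 rose, and in the myotube-enriched fraction no gene was called. Hdac1, a histone deacetylase, rose with dox in every tested comparison outside the myotube-enriched fraction, from log2 0.37 at 0 h to 1.33 ± 0.08 at 120 h (adjusted p = 3.91e-06), and Hdac2 fell at 48 h, in iCdh23 and in iMcam (log2 -0.44, -0.58 and -0.55). Of 9 cofactors of Myc, 1 rose and 2 fell at 0 h and again at 120 h, 4 rose and 3 fell at 48 h, 2 rose and 3 fell in each of iCdh23 and iMcam, and none was called in either fraction, beside the same shares of all genes. Trrap, a scaffold of histone acetyltransferase complexes, rose at 0, 48 and 120 h and in both other lines (log2 0.27 to 1.22). The same list held Ruvbl1, an ATPase of chromatin complexes, which fell by 0.50 at 0 h, 0.50 in iCdh23 and 0.53 in iMcam on the log2 scale.

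Of 8 genes for Myc protein turnover, 6 fell with dox at 48 h, 5 in iCdh23 and 4 in iMcam, and none rose in these. Of all genes, 28.7%, 32.4% and 24.8% fell in these comparisons. Cip2a, whose protein protects Myc from dephosphorylation and is high in dividing cells, led each (log2 -1.97 ± 0.10, -4.18 ± 0.23 and -2.76 ± 0.28; adjusted p = 1.14e-07, 9.43e-06 and 0.000393). At 120 h, 3 rose and 3 fell, with Fbxw7, a ubiquitin ligase subunit that targets Myc, lower by log2 -1.498 ± 0.124 (adjusted p = 1.92e-05); of all genes, 21.4% rose and 23.7% fell there. Of 4 further basic helix-loop-helix zipper genes of the wider network, all 4 (Mlx, Mlxip, Mga and Mlxipl, the glucose-responsive factor) rose in iCdh23, with a median of log2 0.65, where 31.3% of all genes rose. At 48 and 120 h in iMyoD1, 3 were tested and none was called, where 56.6% and 45.2% of all genes were.

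Over the 16 group means, the genes with a pattern most like that of Myc among 10887 with a mean of at least 5 CPM were Noc2l (Pearson r = 0.943), Plk2 (0.903), Atic (0.902), Trmt61a (0.898) and Rrp15 (0.890) on the log2(CPM + 0.5) scale. Noc2l and Rrp15 act in the nucleolus, Atic in purine synthesis, Trmt61a in tRNA methylation, and Plk2 is a kinase. Groups of 1 table share their processing, and the coefficients are descriptions over 16 points. These points include both 24 h groups, on which Myc was chosen (145 CPM without dox and 8.81 with dox). The ranking is thus partly a ranking by that contrast and no separate evidence. Among the members themselves, Myc and Mycl had an r of 0.57, Max and Mnt 0.64, and Mxd1 and Mxd3 -0.64.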

How the data were processed

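Poly(A) RNA-seq libraries from 47 C2C12 samples in 16 groups were analysed. The authors quantified reads with Salmon (mm10 per the labels) and deposited estimated counts per transcript in 3 tables, of which 30.97 to 34.36% of values were not whole; annotation, strand setting and Salmon version are not given in the sources used here. Transcripts were matched to GENCODE vM21 (98.72% of 109617 had a length), and the estimated counts were summed to 45706 gene IDs and rounded. Totals ran from 15066362 to 50950707 (median 22837955). TPM was computed from annotated transcript lengths.

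Each comparison of 2 groups, and each difference of effects, was fitted alone with edgeR 4.0.16 (limma 3.58.1, R 4.3.3) after filterByExpr and TMM scaling by its quasi-likelihood test, with p adjusted by Benjamini-Hochberg over all genes, and called at an adjusted p under 0.05; SE is the log2 fold change divided by the square root of F. The script was tested on simulated data. Alternatives were RLE, upper-quartile and library-total scaling, no filter, DESeq2 1.42.0, all groups in 1 fit, a replicate block and leaving out each library. Plots used Python 3.11.15 and matplotlib 3.10.9.

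Members and gene lists were chosen with earlier results of these data known. Every member is named, and of each list, beside its counts, the gene with the strongest called rise or fall in a comparison; of the genes most like Myc, the 5 with the highest Pearson r. Mlx, Mlxip and Mga were named beyond this rule, after their values were seen. Same-numbered samples deviated together in iCdh23 (correlations of 0.13 to 0.272), iMcam (0.395 to 0.516) and between the fractions without dox (0.197 to 0.529), with every pair over 0.1, so their numbers were taken as paired; the dox comparison in the myoblast-enriched fraction had only 2 pairs (0.404 and 0.561), too few for this rule.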

Additional observations from a re-analysis of the deposited data

Results flagged for a closer look

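The results below stand out because the dox effect on a member differed between 2 settings by a test of the difference itself (edgeR's quasi-likelihood interaction test). No explanation was weighed.

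Between 120 h in the whole culture and 48 h, the difference of dox effects (120 h minus 48 h, log2) was -1.255 for Myc, 0.609 for Mycl, -1.015 for Mxd1, 2.018 for Mxd3, -0.468 for Mxd4 and -1.164 for Mnt. Mxd3 was lower with dox in all libraries at 48 h, while its groups overlapped at 120 h. The summed proliferation markers were 1090 to 1120 CPM without dox and 322 to 334 with dox at 48 h, and 217 to 258 and 426 to 499 CPM at 120 h; their part in the difference was not tested.

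Between iMcam and iCdh23 at 48 h (iMcam minus iCdh23, log2), it was 1.345 for Myc, 2.873 for Mycl, 2.218 for Mxd3 and 0.649 for Mxi1. The call of Mxi1 was lost without iCdh23 dox library 1, iMcam control 2 or iMcam dox library 2 (adjusted p of 0.0507 to 0.0533), and that of Mxd3 without any 1 of 6 libraries. In 1 fit over all groups, Mycl stayed called (adjusted p = 0.0262), while Myc, Mxd3 and Mxi1 did not pass (adjusted p = 0.416, 0.275 and 0.556).

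Between 48 h and 0 h (48 h minus 0 h, log2), it was -3.117 for Mycl, -0.718 for Mxd1, -1.413 for Mxd3 and 0.477 for Mxd4. Medium, the length of dox treatment (24 h at 0 h, 48 h at 48 h) and deposited table differ between these times, and only the 48 h libraries carry a batch label, so these cannot be told apart from time.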

How the results depend on the processing

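Of 1940 member values recomputed under the alternatives, 1807 kept their direction and side of the threshold, 48 passed newly, 61 no longer passed and 24 changed sign, none of the latter called under either setting. Of 88 called member values, 74 were never lost; both counts include values of the 24 h libraries, which are a description. Counts of called members moved by over 1.5 times as follows, and the cause was not tested. At 48 h, scaling to library totals called 7 members. In the myoblast-enriched fraction, 1 fit over all groups called 0, and leaving out libraries gave 0 to 2 (1 without control 1, 0 without control 3 or either dox library). Between the fractions without dox, DESeq2, the replicate block and leaving out both myotube-enriched libraries numbered 2 each called 1, and leaving out 1 library gave 0 to 1 (1 without the myotube-enriched library 2). Between iMcam and iCdh23, 1 fit over all groups called 1, and leaving out libraries gave 2 to 4 (2 without iCdh23 dox library 1 or iMcam control 2).

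Signs changed (log2) under scaling to library totals for Max at 0 h (0.016), Mxd1 at 48 h (0.047), Mxd4, Mxi1 and Mnt in iCdh23 (0.202, 0.157 and 0.249), Mxd1 from 0 to 24 h without dox (-0.016) and Max from 24 to 48 h with dox (-0.037). They also changed with the replicate block for Mxd1 in the myoblast-enriched fraction (-0.048) and, without both libraries numbered 2, between the fractions for Mxi1 (0.107) and Mnt (0.212). With 1 library left out, ranges spanned 0 for Mnt from 48 to 120 h without dox (-0.297 to 0.015), in the myoblast-enriched fraction (-0.112 to 0.204), in iCdh23 (-0.239 to 0.116) and between the fractions (-0.228 to 0.212); for Mxd1 from 0 to 24 h without dox (-0.025 to 0.246) and in the myoblast-enriched fraction (-0.057 to 0.171); for Mxd4 in iCdh23 (-0.365 to 0.085), Mxi1 between the fractions (-0.445 to 0.107) and Myc in the myotube-enriched fraction (-0.956 to 0.135).

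Scaling to library totals moved the median of all genes by log2 0.107 at 0 h, 0.261 at 24 h, 0.151 at 48 h, 0.201 at 120 h, 0.328 in iCdh23 and 0.215 in iMcam. The replicate block called 4 members at 120 h and 3 in the myoblast-enriched fraction, where Mxi1 joined (log2 -0.436, adjusted p = 0.0148) and all called genes went from 619 to 4051. With the numbers paired, it kept the counts in iCdh23 (4) and iMcam (5). Low counts limit Mycn, and Mycl and Mxd3 where they lie near 1 CPM.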
